A study of Homo sapiens with 6 samples.

Results

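The 10 typical MAP kinase phosphatases of the DUSP family were followed by gene name through the authors' deposited table of FPKM values (fragments per sequence length and library size). They are DUSP1, DUSP2, DUSP4, DUSP5, DUSP6, DUSP7, DUSP8, DUSP9, DUSP10 and DUSP16. All 10 names were found, with 20 of the table's 82428 coding sequences, and 16 of these 20 had been tested by the authors. The table holds 20660 gene names in all.

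RNA came from FaDu cells, an established squamous carcinoma line of the hypopharynx, treated with BB608 or with its vehicle DMSO. BB608 is known here by its code name only, and its dose and treatment time were not stated in the labels. Each group had 3 biological replicates, per the series' design text, but the table holds 1 pooled value per group, so values per library are not shown and the spread of a level is unknown. The table labels its groups DMSO_subset and BB608_subset, a word left unexplained there, so each FPKM, p and q may rest on fewer libraries than the design names. The line itself is shared by both groups and is the only cell model used. All 6 squamous epithelial markers checked were above 1 FPKM in DMSO, with a summed level of 2541 FPKM under DMSO and 2692 FPKM under BB608. None of 5 fibroblast markers reached 1 FPKM in DMSO (summed 1.01 and 0.865 FPKM), and COL1A2 and COL3A1 are listed at 0 there. Of 4 blood and endothelial markers found in the table, 1 exceeded 1 FPKM in DMSO, namely CD14 at 2.23 FPKM under DMSO and 2.24 FPKM under BB608, and CD3E is listed at 0 in both groups. The summed level of these 4 was 2.30 FPKM under DMSO and 2.32 FPKM under BB608.

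MAP kinases are switched on when a MAP kinase kinase phosphorylates a threonine and a tyrosine in their activation loop, and these phosphatases switch them off by removing both phosphates. A docking domain decides which kinases each phosphatase binds: ERK, JNK or p38. Several of these genes are themselves induced by MAP kinase signalling, so the family is known as a negative feedback layer of growth factor and stress responses. In squamous carcinoma cells the EGF receptor and RAS are well-known inputs to the ERK branch.

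With BB608, 4 of the 10 phosphatase genes fell past the authors' threshold (Cuffdiff q under 0.05): DUSP1, DUSP2, DUSP5 and DUSP10. None rose past it. Of the 6 others, 4 had tested coding sequences that were not called and 2, DUSP8 and DUSP9, had none tested. The background is a fall in 0.630% of the 11429 genes with a tested coding sequence and a rise in 0.429% of them. The chance of a call differed with gene structure. Among the 3551 genes with a single tested coding sequence 1.27% had a called fall, and DUSP1, DUSP2 and DUSP5 are genes of that kind. Among genes with more than 1 tested coding sequence 0.343% had a called fall, and DUSP10 is 1 of the 5 members of that kind. The members were chosen with results of these data known, so these counts are a description.

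The gene sum adds the FPKM of every coding sequence that a gene has in the table. By gene sums the family amounted to 102.5 FPKM under DMSO and 71.8 FPKM under BB608. Gene sums were lower in BB608 for 8 of the 10 genes and higher for DUSP7 and DUSP16. DUSP8 and DUSP9, both untested and under 1 FPKM, are among the lower ones. Across the 10859 genes kept for such comparisons, 42.4% had a lower gene sum in BB608. Of the 8 phosphatase genes kept, 6 had. Kept genes had at least 1 tested coding sequence and no failed one, and their gene sum reached 1 FPKM in either group. The 8 phosphatase genes that were kept had a median log2 fold of the gene sum of -0.61, against 0.03 for all kept genes. In a bulk culture, fewer cells expressing a gene and less of its RNA per cell cannot be told apart.

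**Figure D1:**
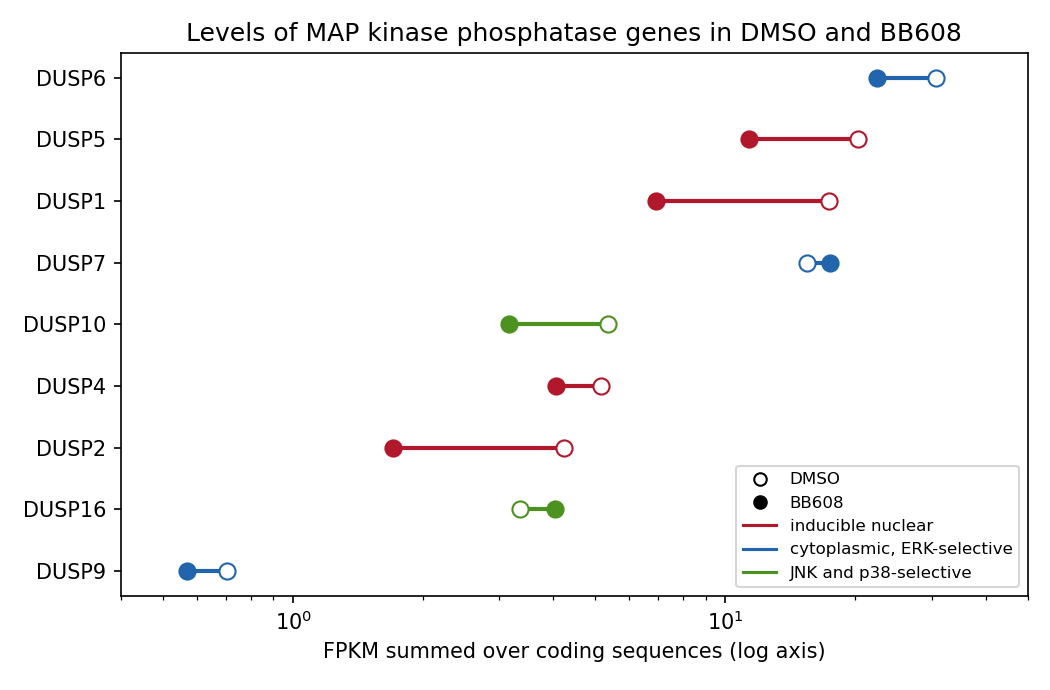
Gene sums in FPKM (log axis) for 9 phosphatase genes, with an open point for DMSO, a filled point for BB608 and colour for the subgroup; each point is 1 pooled value with no error. DUSP6 was the most abundant in both groups, and only DUSP7 and DUSP16 had the filled point to the right; DUSP8, at 0.0517 FPKM in DMSO, is not drawn.

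The largest called falls were those of DUSP1 and DUSP2, both inducible nuclear phosphatases. DUSP1, which acts on p38, JNK and ERK in the nucleus and is a classic immediate-early gene, was at 17.3 FPKM under DMSO and 6.91 FPKM under BB608 in the authors' deposited table. BB608 cells thus had 39.9% of the DMSO level, a log2 fold of -1.33 (implied SE 0.19, 95% interval -1.69 to -0.96). The implied SE is derived from the authors' test statistics and p-values and covers only the spread that their model estimated. It uses a ratio of p to statistic fitted over many coding sequences. The called sequences of this family, at the smallest p Cuffdiff gave, were left out of that fit, so their SE is extrapolated. DUSP1 has 1 coding sequence in the table, so its gene sum is the same value. In the authors' deposited table its locus spans 172185229 to 172204777 on chromosome 5 of hg19. All loci given here are as listed there and may reach beyond the gene itself.

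DUSP2, a nuclear phosphatase first known from activated lymphocytes that acts on ERK and p38, moved by a like amount from a lower level. It was at 4.23 FPKM under DMSO and 1.70 FPKM under BB608 in the authors' deposited table. Its log2 fold was -1.31 (implied SE 0.29, 95% interval -1.87 to -0.75), and with a pseudocount of 1 FPKM it was -0.95. The interval is wider than that of DUSP1 and contains it. The DUSP2 locus lies on chromosome 2 of hg19, from 96808862 to 96811179.

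DUSP5, which binds ERK alone and holds it inactive in the nucleus, was the second most abundant member in DMSO. It was at 20.3 FPKM under DMSO and 11.4 FPKM under BB608 in the authors' deposited table, which gives a log2 fold of -0.83 (implied SE 0.13, 95% interval -1.09 to -0.57). The differences among the folds of DUSP1, DUSP2 and DUSP5 were not tested. DUSP5 has pseudogenes, DUSP5P1 and DUSP5P2, in GENCODE 29, and reads shared with them could not be separated here. Its locus spans 112257596 to 112274201 on chromosome 10 of hg19. The calls of DUSP1, DUSP2 and DUSP5 carry the smallest p that Cuffdiff gave, 5e-05, and its q of 0.0154.

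DUSP4, the remaining nuclear member, acts on ERK and JNK and was not called. Its more abundant coding sequence was at 3.77 FPKM under DMSO and 2.83 FPKM under BB608 in the authors' deposited table, with an unadjusted Cuffdiff p of 0.0208 and a q of 0.997. The log2 fold of that sequence was -0.41 (implied SE 0.18). Its other coding sequence was at 1.39 and 1.23 FPKM in the deposited table, which gives a log2 fold of -0.17 (implied SE 0.26). The DUSP4 gene sum had -0.34. The interval of its more abundant sequence, from -0.77 to -0.06, lies above that of DUSP1 and overlaps that of DUSP5; the difference between genes was not tested.

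To show the sequence in front of the genes with the largest called falls beside that of the member with the most precise fold above 0, the 250 bases before the start of DUSP1, DUSP2 and DUSP7 are given from RefSeq (GRCh38.p14), 5′ to 3′ on the gene's strand. Capitals mark a cyclic AMP response element (TGACGTCA), an E-box (CACGTG) or a TATA box (TATAAA), searched on both strands.
DUSP1 (chr5:172771196-172771445, minus strand): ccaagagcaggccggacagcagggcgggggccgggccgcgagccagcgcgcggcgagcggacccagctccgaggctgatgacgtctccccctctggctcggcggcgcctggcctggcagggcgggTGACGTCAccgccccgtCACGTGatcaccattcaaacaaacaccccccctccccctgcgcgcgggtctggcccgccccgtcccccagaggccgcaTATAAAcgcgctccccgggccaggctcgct
DUSP2 (chr2:96145441-96145690, minus strand): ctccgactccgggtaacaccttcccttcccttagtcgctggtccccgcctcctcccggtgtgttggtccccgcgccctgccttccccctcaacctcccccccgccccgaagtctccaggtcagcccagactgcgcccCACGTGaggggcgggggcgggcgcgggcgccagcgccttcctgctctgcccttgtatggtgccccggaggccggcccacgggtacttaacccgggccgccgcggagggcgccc
DUSP7 (chr3:52056572-52056821, minus strand): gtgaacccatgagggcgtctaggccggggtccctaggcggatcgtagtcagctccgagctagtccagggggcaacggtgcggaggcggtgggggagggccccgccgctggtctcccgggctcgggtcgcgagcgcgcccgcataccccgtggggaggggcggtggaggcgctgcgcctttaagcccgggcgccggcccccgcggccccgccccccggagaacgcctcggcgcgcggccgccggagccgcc

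The DUSP1 stretch held 1 match of each of these motifs. Its response element covered bases 125 to 118 before the start, its E-box bases 108 to 103 and its TATA box bases 30 to 25. The DUSP2 stretch held an E-box at bases 113 to 108, and the DUSP7 stretch none of the 3 motifs. Among all 35116 promoters of the same length in the table, 1.65% held the response element, 6.34% the E-box and 10.7% the TATA box. RefSeq's table matched 8 of the 10 members with 10 starts. DUSP4 and DUSP5 were not matched. Of these 10 starts, 2 held the response element, in DUSP1 and in the nearly silent DUSP8. The E-box was in 2, those of DUSP1 and DUSP2, and the TATA box in 1, that of DUSP1. Both starts of DUSP10, which also had a called fall, held none of these 3 motifs. The GC box (GGGCGG) was in 9 of the 10 and in 42.6% of all promoters. An AP-1 site (TGANTCA), a STAT site (TTCNNNGAA) and the CArG box had no match in any of the 10, against 6.57%, 6.57% and 1.16% of all promoters. No motif of the set overlapped another within the capitals. GC content was 74.4% for DUSP1, 74% for DUSP2 and 78.4% for DUSP7, against a median of 58% over all promoters. A match describes the letters and is not evidence of binding.

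The cytoplasmic, ERK-selective phosphatases showed no call. DUSP6, a widely used readout of ERK activity that removes phosphate from ERK in the cytoplasm, had 3 tested coding sequences, all lower in BB608. The first was at 15.5 FPKM under DMSO and 11.4 FPKM under BB608 in the authors' deposited table, which gives a log2 fold of -0.44 (implied SE 0.37). The second was at 13.3 and 9.37 FPKM in the deposited table, with -0.51 (implied SE 0.21), an unadjusted Cuffdiff p of 0.0144 and a q of 0.997. The third was at 1.84 and 1.67 FPKM, with -0.14 (implied SE 0.39). Cufflinks divides reads of a gene among overlapping coding sequences, which widens each error. The DUSP6 gene sum was 30.7 FPKM under DMSO and 22.5 FPKM under BB608, a log2 fold of -0.45, for which no error was derived. The DUSP6 locus spans 89740716 to 89747048 on chromosome 12 of hg19.

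DUSP7, the close relative of DUSP6 with the same preference for ERK, was not called either. Its main coding sequence was at 13.4 FPKM under DMSO and 15.4 FPKM under BB608 in the authors' deposited table. The log2 fold was 0.20 (implied SE 0.11, 95% interval -0.01 to 0.41), with an unadjusted Cuffdiff p of 0.0555 and a q of 0.997. This was the smallest implied SE in the family. The interval lies wholly above those of the called sequences of DUSP1, DUSP2, DUSP5 and DUSP10, but the difference between genes was not tested. The second DUSP7 coding sequence was at 2.06 and 2.09 FPKM in the deposited table, which gives a log2 fold of 0.02 (implied SE 0.30). DUSP9, an ERK-directed member best known from placenta, was barely present. Its 2 coding sequences were not tested, and its gene sum was 0.701 FPKM under DMSO and 0.569 FPKM under BB608.

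Among the JNK and p38-selective members only DUSP10 had a call. DUSP10, which acts on p38 and JNK in both cytoplasm and nucleus, had both of its coding sequences lower in BB608. The more abundant one was at 3.68 FPKM under DMSO and 2.30 FPKM under BB608 in the authors' deposited table, and fell with a log2 fold of -0.68 (implied SE 0.16, 95% interval -0.99 to -0.37; q 0.0154). The other was at 1.67 and 0.852 FPKM in the deposited table, which gives a log2 fold of -0.98 (implied SE 0.29), with an unadjusted Cuffdiff p of 0.00065 that missed the threshold at a q of 0.146. The DUSP10 gene sum was 5.36 FPKM under DMSO and 3.15 FPKM under BB608, which gives -0.77. The DUSP10 locus spans 221874766 to 221915518 on chromosome 1 of hg19.

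DUSP16, a JNK-directed member that shuttles between nucleus and cytoplasm, had 4 tested coding sequences and no call. The most abundant in DMSO was at 1.98 FPKM under DMSO and 0.843 FPKM under BB608 in the authors' deposited table, which gives a log2 fold of -1.23 (implied SE 1.00). The other 3 were higher in BB608, at 1.18, 0.985 and 1.03 FPKM against 0.585, 0.532 and 0.260 FPKM in DMSO in that table. Their log2 folds were 1.01 (implied SE 1.06), 0.89 (implied SE 0.71) and 1.98 (implied SE 1.00). The first sequence made up 58.9% of the gene sum in DMSO and 20.9% in BB608. None of the 4 had an unadjusted Cuffdiff p under 0.05, and the lowest was 0.0973 in the deposited table. The 95% interval of the last sequence, 0.03 to 3.93, leaves out 0 although its p missed 0.05, which shows how approximate the implied SE is. The gene sum was 3.35 FPKM under DMSO and 4.04 FPKM under BB608, a log2 fold of 0.27. The direction for DUSP16 thus depended on whether the gene sum or its most abundant sequence was taken. DUSP8, the third member of this subgroup, had 1 untested coding sequence at 0.0517 FPKM under DMSO and 6.48e-06 FPKM under BB608, and no fold is given.

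**Figure D2:**
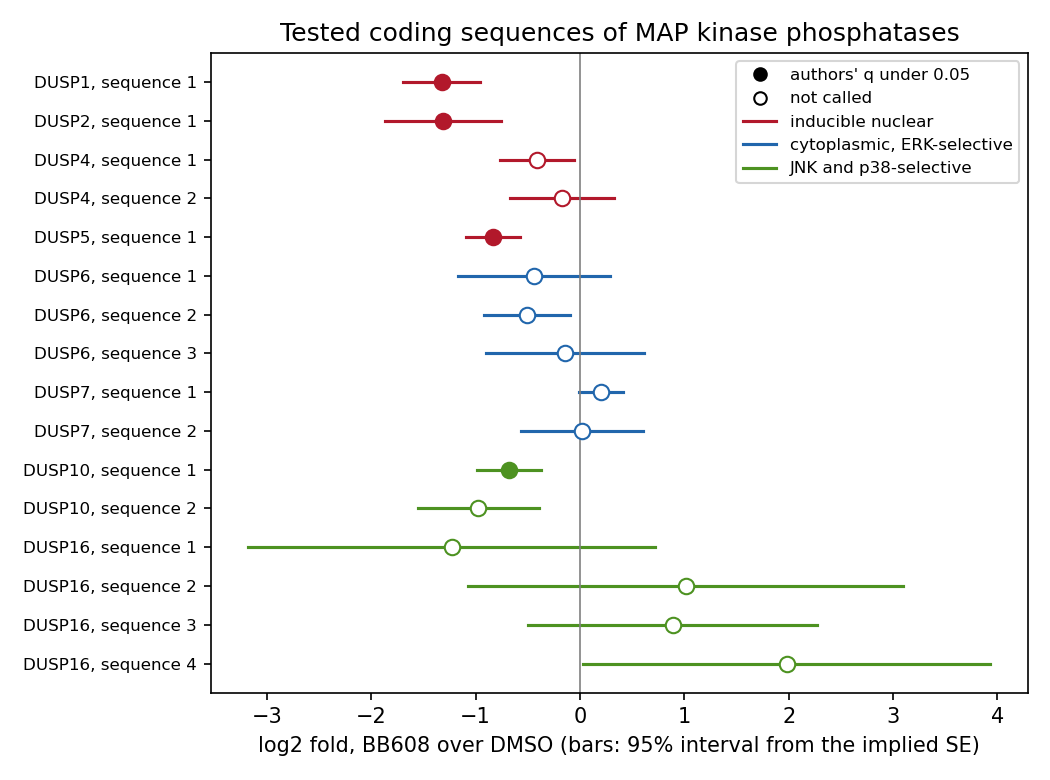
Log2 fold of BB608 over DMSO for the 16 tested coding sequences, with bars for the 95% interval from the implied SE, filled points for an authors' q under 0.05 and colour for the subgroup. The 4 filled points all lie below 0, DUSP7 has the shortest bar, and the DUSP16 bars are the longest.

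Over the 16 tested coding sequences, 11 were lower in BB608 and 5 higher, and 4 were called, against 0.354% of all tested coding sequences called in either direction and 0.212% called lower. At an unadjusted Cuffdiff p under 0.05 there were 7 in the authors' deposited table, all of them lower. Of all 34474 tested coding sequences 3.31% had such a p, and 1.51% had it and were lower. These 7 are the 4 called ones and 1 each of DUSP4, DUSP6 and DUSP10. A missed threshold does not show that a gene stayed level. The implied SE ran from 0.11 for DUSP7 to 1.06 for a DUSP16 sequence, so the table could resolve a change of 1 log2 in the first and not in the second.

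These unequal changes altered the make-up of the family. FPKM is scaled by length, so levels can be set side by side between genes. The 4 inducible nuclear genes summed to 47.0 FPKM under DMSO and 24.1 FPKM under BB608, and their share of the family went from 45.8% to 33.5%. The 3 cytoplasmic ERK-selective genes summed to 46.8 FPKM under DMSO and 40.5 FPKM under BB608, and their share went from 45.6% to 56.5%. The 3 JNK and p38-selective genes summed to 8.76 FPKM under DMSO and 7.19 FPKM under BB608, and made up 8.55% and 10.01%. The shares of these last 2 subgroups were thus larger in BB608 although their sums were lower, because the family total was lower too. The first 2 subgroups were thus nearly level in DMSO, while in BB608 the ERK-selective sum was the higher. None of these sums was tested, since the table gives no value per library.

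In DMSO the order of gene sums was DUSP6, DUSP5, DUSP1, DUSP7, DUSP10, DUSP4, DUSP2, DUSP16, DUSP9 and DUSP8. In BB608 DUSP7 stood second, above DUSP5 and DUSP1, and DUSP2 stood eighth. DUSP7 held 15.0% of the family's FPKM in DMSO and 24.4% in BB608, while DUSP1 went from 16.9% to 9.63%. DUSP6 held 29.9% and 31.3%. Which neighbours in this order differ beyond their spread could not be told, because levels carry no error in the table.

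**Figure D3:**
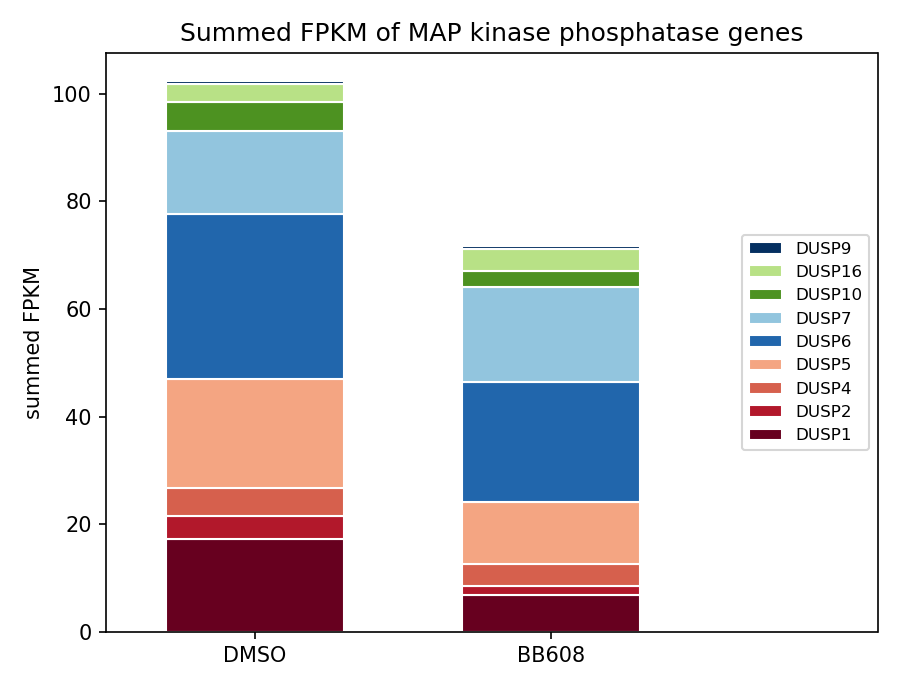
Summed FPKM of the phosphatase genes in DMSO and BB608, with 1 coloured segment per gene, reds for the inducible nuclear, blues for the cytoplasmic ERK-selective and greens for the JNK and p38-selective genes; each bar is pooled by the authors and has no error. The red segments sum to 47.0 FPKM under DMSO and 24.1 FPKM under BB608, and DUSP8 is too low to draw.

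The kinases that these phosphatases act on had no call. Of 10 MAP kinase genes 8 were tested and kept, 3 lower and 5 higher in BB608, with a median log2 fold of the gene sum of 0.10. None had a Cuffdiff q under 0.05 and none an unadjusted p under 0.05 among 29 coding sequences. Of all tested coding sequences 0.354% were called and 3.31% had such a p, so these counts are near the background. The 2 with the largest gene sum folds were MAPK7, which encodes ERK5, at 0.54 and MAPK3, which encodes ERK1, at 0.28.

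The layers above and below the MAP kinases had no call either. Of 7 MAP kinase kinase genes, all tested, 4 were lower and 3 higher, with a median of -0.05, and MAP2K6 at -0.45 and MAP2K5 at -0.20 had the largest gene sum folds. Of 10 RAF and MAP3 kinase genes 9 were kept, 3 lower and 6 higher, with a median of 0.07, and MAP3K3 at -0.52 and BRAF at 0.24 had the largest. Of 11 kinases downstream of MAP kinases 9 were kept, 4 lower and 5 higher, with a median of 0.05, and RPS6KA4 at 0.31 and RPS6KA5 at -0.27 had the largest. By Cuffdiff's q these lists had 0 calls among 22, 24 and 45 tested coding sequences. Each had 1 at an unadjusted p under 0.05, in MAP2K2, MAP3K11 and MKNK1. With 0.354% of all tested coding sequences called and 3.31% at such a p, counts this low are near the background. Normal p-values made from the authors' statistic also gave 0 calls. They were scaled to match the authors' own p, so they restate it and are no separate check.

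Other phosphatases were likewise without a call. Among all tested coding sequences 0.354% were called and 3.31% had an unadjusted Cuffdiff p under 0.05. The counts that follow are near these shares. Of 16 atypical DUSPs and pseudophosphatases, which lack the MAP kinase docking domain or the catalytic residue, 10 were kept, 5 lower and 5 higher. Their median was 0.03, with gene sum folds from -0.18 to 0.23, the highest in DUSP22 and DUSP23. None of their 22 tested coding sequences had an unadjusted Cuffdiff p under 0.05. Of 8 other phosphatases that act on MAP kinases 5 were kept, 3 lower and 2 higher, with a median of -0.07. The largest gene sum folds there were -0.47 in PPM1D, a p53-induced phosphatase, and -0.29 in PPP2CB. PPP2CA, a catalytic subunit of protein phosphatase PP2A, had the only coding sequence at an unadjusted Cuffdiff p under 0.05. The 3 tyrosine phosphatases that dock on MAP kinases, PTPN5, PTPN7 and PTPRR, had no tested coding sequence.

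**Figure D4:**
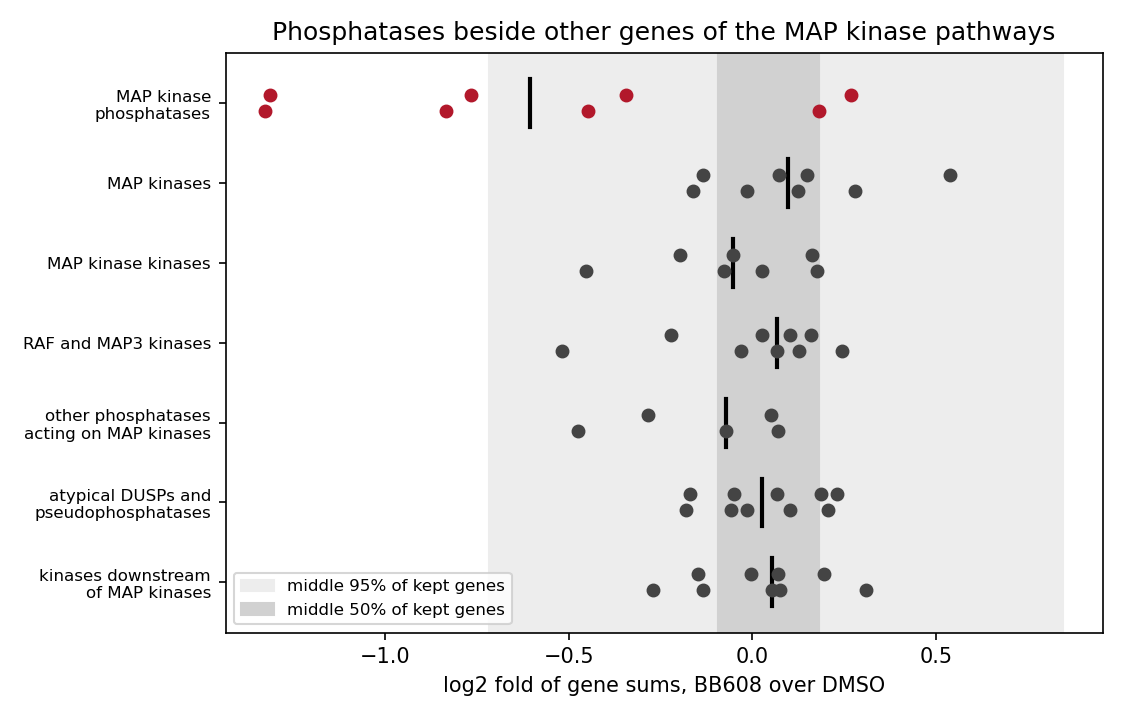
Log2 fold of gene sums for the kept genes of each list, 1 point per gene with a black line at the list's median; the bands hold the middle 50% and the middle 95% of the 10859 kept genes. DUSP1, DUSP2, DUSP5 and DUSP10 lie left of the wider band, whose lower bound is -0.72, and no gene of the other lists does.

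Genes near the phosphatase loci were too few to set against the background. Within 100 kb of the DUSP1, DUSP2, DUSP5 and DUSP10 loci there were 4 kept genes, with gene sum folds from -0.01 to 0.68. They were ERGIC1 and NEURL1B beside DUSP1, STARD7 beside DUSP2 and SMC3 beside DUSP5. None of their 6 tested coding sequences was called by Cuffdiff's q, and 2 had an unadjusted p under 0.05, in STARD7 and SMC3. Over all tested coding sequences these shares were 0.354% and 3.31%. Beside the other members' loci 15 kept genes, with folds from -1.19 to 1.00, also had 0 calls, and 2 of their 35 tested coding sequences had an unadjusted p under 0.05. DUSP10 had no kept gene in that range.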

How the data were processed

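Per the labels' protocols, total RNA depleted of ribosomal RNA went into stranded libraries. TopHat2 2.0.11, Cufflinks 2.2.1, Cuffdiff and the build hg19 are listed in the submitters' processing notes; the annotation and the use of strand in counting are not given in the sources here. The deposited FPKM values are 1 per coding sequence and group, pooled by the authors, so depth is unknown. The deposited p-values and q-values are the authors' Cuffdiff results, and the deposited test statistic is a score per coding sequence.

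Log2 folds were computed from the FPKM values with Python 3.11.15 (pandas 2.3.3, scipy 1.17.1). The design foresaw limma on values per library, and otherwise the authors' q with no further test; the second case applied. For 29391 coding sequences the normal quantile of p was divided by the size of the statistic, with a median ratio of 1.731 (quartiles 1.63 and 1.77). The implied SE is the fold over the statistic and that median. Start positions of loci were shifted to count from 1.

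Members and lists were chosen with earlier results of these data known. All 10 members are named, and of each other list the called genes and the 2 with the largest gene sum fold; genes at an unadjusted p under 0.05, neighbours and the tyrosine phosphatases were added with their values known. The adjustment of p was also run on simulated folds with noise drawn from the implied SE, which does not check the authors' Cuffdiff calls.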

Additional observations from a re-analysis of the deposited data

How the results depend on the processing

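The 4 called members remained 4, the same genes, with a mean of at least 1 FPKM. They were also the same when a normal p was made from the deposited statistic times 1.731. That factor was fitted to the authors' own p, so the latter result restates their p and is no separate check. With a mean of at least 5 FPKM 2 were called, DUSP1 and DUSP5, because the DUSP2 and DUSP10 sequences lie below that level. An absolute log2 fold of at least 1 left 2, DUSP1 and DUSP2, by its own construction. Adjusting only over genes that have a single tested coding sequence gave 3, without DUSP10, which has more. The 8 lower gene sums were 8 under both scalings and both pseudocounts. Among the 8 kept members 6 were lower, and 7 with the most abundant coding sequence, when DUSP16 had -1.23 in place of 0.27. Setting the median log2 ratio of kept genes to 0 shifts folds by 0.03. Gene sums have no SE of their own, so shifts were measured against the implied SE of the gene's most abundant tested coding sequence, and those of single sequences against their own. Of 55 such values, 49 stayed within 1 of these SEs and 6 moved further, 5 of them with a pseudocount of 1. Some of the 49 could not have moved. DUSP1, DUSP2 and DUSP5 have 1 coding sequence, so its fold is that of the gene sum. The median shift of 0.03 lies below the smallest implied SE, 0.11. For these 3 genes the pseudocount of 1 is also counted both for the gene sum and for the sequence. The values that moved were all of DUSP2, DUSP10 and DUSP16. With a pseudocount of 1 they included the called sequence of DUSP2, from -1.31 to -0.95, and that of DUSP10, from -0.68 to -0.51. No called fold changed sign. These alternatives were chosen after seeing the data: genes of 1 tested coding sequence, sums of tested sequences only, and leaving out DUSP8 and DUSP9. Fits by library were not run. No paired analysis was possible because libraries are pooled within each group, and no replicate could be left out.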
